A study of Mus musculus with 31 samples.

Results

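The 8 voltage-gated sodium channel genes described here are Scn1a, Scn2a, Scn3a, Scn8a and Scn9a, which encode pore-forming alpha subunits, and Scn2b, Scn3b and Scn4b, which encode auxiliary beta subunits. They were taken from a fixed list by gene symbol, out of 48795 genes in the count table, and all 8 passed the filter on low counts that left 19529 genes. The study examined mouse brain after developmental exposure to deltamethrin, a pyrethroid insecticide, by total RNA sequencing. Its libraries comprised 13 controls and 18 from the deltamethrin group, all labelled as brain and made from aliquots of homogenised tissue that held part of each brain. The labels give no strain, sex, age, dose or litter, and they do not say whether the libraries came from separate animals. The p-values below therefore set differences and correlations against the spread between these libraries, which may be partly technical. They treat the libraries as independent, which the labels do not establish.

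A voltage-gated sodium channel opens when the membrane is depolarised, lets sodium into the neuron and starts the action potential, and then closes within milliseconds by inactivation. The alpha subunit forms the pore, the voltage sensors and the inactivation gate, while beta subunits are single-pass membrane proteins that modify gating and surface expression and act as adhesion molecules. Pyrethroids bind the alpha subunit and slow its inactivation and deactivation, so that the sodium current is prolonged. In rodent brain the alpha subunits are known to replace one another during development and to differ in the neurons and axon segments where they are found.

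In the GENCODE M21 annotation of GRCm38, all 8 are protein-coding genes. Scn3a (chr2:65457118-65567627, minus strand), Scn2a (chr2:65620771-65767447, plus strand), Scn1a (chr2:66270778-66440840, minus strand) and Scn9a (chr2:66480080-66634962, minus strand) lie within 1178 kb of one another. Scn8a is on another chromosome (chr15:100869858-101045938, plus strand). The 3 beta subunit genes are on the plus strand of chromosome 9, where Scn2b (chr9:45117782-45130070) and Scn4b (chr9:45138395-45154152) are neighbours and Scn3b (chr9:40269217-40291618) is apart from them.

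The 5 alpha mRNAs are alike enough for a short read to match more than 1 of them. The longest run of bases identical between the longest coding transcripts was 188 bases between Scn1a and Scn2a, followed by 184 bases between Scn3a and Scn9a. Between Scn8a and the other alpha genes it was 32 to 55 bases.

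Of all 50-base windows of the longest coding transcript, the share found unchanged in another sodium channel transcript was 5.48% for Scn1a, 7.58% for Scn2a, 8.53% for Scn3a and 5.36% for Scn9a. It was 0.0527% for Scn8a, and 0% for each of the 3 beta subunit genes. How the authors' counting assigned reads from such windows is not given in the sources used here, so the counts of the 4 alpha genes on chromosome 2 are uncertain to that extent. Scn9a also shares 180 bases of exon with the antisense gene Gm13629. That gene had 35 to 206 counts per library against 59 to 300 for Scn9a, and the use of strand is not given in the sources used here.

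The libraries held 17570311 to 38680621 counts. The mitochondrial ribosomal RNAs took from 7.32% to 40.2% of them, and control replicate 2 was at the extreme of both ranges, with the lowest total and the highest share. All 8 pan-neuronal markers listed (Rbfox3, Snap25, Syt1, Tubb3, Stmn2, Nefl, Eno2 and Thy1) were detected in every library, with a summed level of 2195 to 4308 CPM in control and 2866 to 4411 CPM in deltamethrin. CPM is the count of a gene scaled to a common library size, here after correction by the trimmed mean of M-values (TMM) method.

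Levels of different genes were compared per kilobase of annotated exon. Scn2b was the highest at 62.8 ± 13.1 CPM per kb (SD, n = 31), followed by Scn4b at 40.4 ± 9.34 CPM per kb and Scn2a at 23.1 ± 5.12 CPM per kb. Scn8a (13.1 ± 3.65), Scn1a (13.01 ± 2.98) and Scn3b (12.9 ± 1.15 CPM per kb) came next and did not differ beyond their spread: Scn8a was above Scn1a in 16 of 31 libraries and Scn1a above Scn3b in 15 of 31. Scn3a had 3.11 ± 0.558 CPM per kb and Scn9a 0.378 ± 0.114 CPM per kb. The order of the others was well separated, since Scn2b exceeded Scn4b in 29 of 31 libraries, and Scn4b exceeded Scn2a, Scn2a exceeded Scn8a, Scn3b exceeded Scn3a and Scn3a exceeded Scn9a in 31 of 31. With the longest coding transcript as the length, an alternative chosen after seeing the data, Scn4b exceeded Scn2a in 23 of 31 libraries and Scn8a exceeded Scn1a in 22 of 31.

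Whether deltamethrin altered the mRNA of its own target was asked gene by gene. No subunit gene passed the threshold between the groups by edgeR's quasi-likelihood test. Of the 8 genes, 0 had an adjusted p-value under 0.05 and 0 were under 0.05 before adjustment, while over all 19529 genes 0% passed after adjustment and 4.37% were under 0.05 before it. The estimate was above 0 for 6 genes and below 0 for 2, with a median log2 fold change of 0.06, beside 9864 genes above, 9665 below and a median of 0.001 over all genes tested. For the 8 genes, DESeq2 and limma voom also gave 0 before and after adjustment. In bulk tissue, fewer cells of a type and less RNA per cell cannot be told apart.

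Scn2a encodes Nav1.2, the channel of excitatory neurons that occupies axons early in development. Its level ran from 206 CPM (control replicate 10) through a median of 279 to 381 CPM (control replicate 1) in control, and from 203.5 CPM (deltamethrin replicate 9) through 288 to 462 CPM (deltamethrin replicate 1) in deltamethrin. The ranges overlapped, with 13 of 18 deltamethrin libraries inside the control range, 4 above it and 1 below. The means were 287 ± 50.8 CPM (SD, n = 13) and 299 ± 75 CPM (SD, n = 18). The log2 fold change was 0.06 ± 0.11 (SE, 95% interval -0.169 to 0.285, adjusted p = 0.912 by edgeR).

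Scn8a encodes Nav1.6, the main channel of the mature axon initial segment and of nodes of Ranvier. It had 152, 197 and 285 CPM as the lowest, median and highest values in control, and 135, 184 and 372 CPM in deltamethrin. Deltamethrin libraries lay on both sides of the control range, 3 above it and 3 below, with 12 inside. The coefficient of variation was 17.9% in control and 33.15% in deltamethrin, at percentile 42.7 and percentile 81.15 of all genes tested in those groups, and the difference in spread was not tested. In edgeR's fit the log2 fold change was 0.06 ± 0.13 (SE, 95% interval -0.21 to 0.33, adjusted p = 0.924 by edgeR).

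Scn1a encodes Nav1.1, on which fast-spiking inhibitory interneurons depend. Its lowest, median and highest values were 104.5, 132 and 175 CPM in control and 95.4, 151 and 240.2 CPM in deltamethrin. The groups overlapped in 12 of 18 deltamethrin libraries, with 3 above the control range and 3 below. Deltamethrin over control gave a log2 fold change of 0.09 ± 0.11 (SE, 95% interval -0.14 to 0.32, adjusted p = 0.86 by edgeR).

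Scn3a encodes Nav1.3, which is known as the embryonic and neonatal channel of rodent brain. It had 28.9, 36.6 and 48.5 CPM as its lowest, median and highest values in control and 27.0, 36.7 and 56.5 CPM in deltamethrin. The medians were close and 14 of 18 deltamethrin libraries lay within the control range. Its log2 fold change was 0.04 ± 0.09 (SE, 95% interval -0.14 to 0.22, adjusted p = 0.922 by edgeR).

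Scn9a encodes Nav1.7, best known from peripheral sensory neurons, and was the scarcest of the 8. It had 2.48, 4.41 and 7.31 CPM as its lowest, median and highest values in control, and 3.30, 4.53 and 7.78 CPM in deltamethrin. The ranges overlapped for 15 of 18 deltamethrin libraries, 3 were above the control range and 0 below it. Its estimate was the largest of the 8 in size, a log2 fold change of 0.26 ± 0.14 (SE, 95% interval -0.03 to 0.55, unadjusted p = 0.0732, adjusted p = 0.813 by edgeR). The unadjusted p-value was 0.0167 without control replicate 7, the highest control, and 0.0448 without deltamethrin replicate 9, while the adjusted p-values of those fits were 0.67 and 0.637, in a range of 0.577 to 1 over the alternatives with all libraries. Without control replicate 1, the lowest control, the unadjusted p-value by edgeR was 0.137. The overlapping antisense gene Gm13629 had a log2 fold change of 0.11 ± 0.09 (SE, adjusted p = 0.821 by edgeR).

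Scn2b encodes a beta subunit that is joined to the alpha subunit by a disulfide bond. It had 99.7, 301 and 364 CPM as its lowest, median and highest values in control and 216, 299.6 and 386 CPM in deltamethrin. The low end of the control range was set by control replicate 2 (99.7 CPM), and 16 of 18 deltamethrin libraries lay inside the range. The log2 fold change was 0.09 ± 0.12 (SE, 95% interval -0.16 to 0.34, adjusted p = 0.87 by edgeR), and it was 0.01 without control replicate 2, 0.185 by limma voom (adjusted p = 0.822) and 0.02 with a covariate for the expression of long genes.

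Scn4b encodes the other disulfide-linked beta subunit, which is abundant in striatal medium spiny neurons and takes part in resurgent sodium current. Its values were 109, 205 and 305 CPM in control and 134, 197 and 262 CPM in deltamethrin (lowest, median and highest). Every deltamethrin library lay inside the control range, whose lowest library was again control replicate 2. For this gene the log2 fold change was -0.13 ± 0.12 (SE, 95% interval -0.37 to 0.11, adjusted p = 0.825 by edgeR). It was -0.19 without control replicate 2 and -0.07 without control replicate 3, the highest control.

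Scn3b encodes a beta subunit that binds the alpha subunit without a covalent bond, and it was the steadiest of the 8 genes. Its values were 60.0, 71.3 and 81.0 CPM in control and 58.1, 70.1 and 84.9 CPM in deltamethrin (lowest, median and highest). The coefficient of variation was 9.26% in control and 8.89% in deltamethrin, against medians of 20.15% and 19.55% over all genes tested in those groups. The log2 fold change was -0.006 ± 0.053 (SE, 95% interval -0.11 to 0.10, adjusted p = 0.98 by edgeR), so that its interval, as a ratio, ran from 0.924 to 1.07. With no scaling factors its estimate was 0.04. Among the 8 genes this was the narrowest interval, and the widest, for Scn9a, ran from 0.982 to 1.46.

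**Figure D1:**
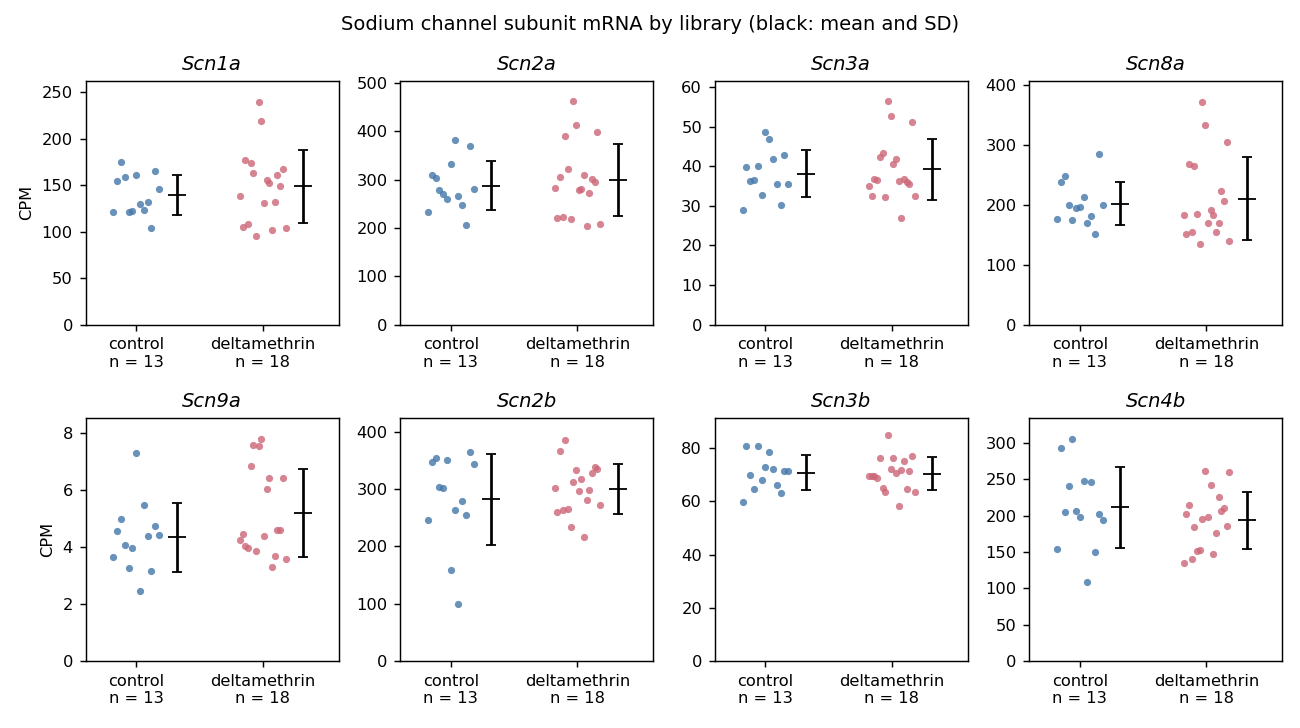
CPM of each of the 8 subunit genes in every library, with controls (blue, n = 13) beside deltamethrin (red, n = 18) and the mean and SD in black; every axis starts at 0. The groups overlap for each gene, and the highest values of Scn1a, Scn2a, Scn3a and Scn8a are those of deltamethrin replicates 1 and 2.

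**Figure D2:**
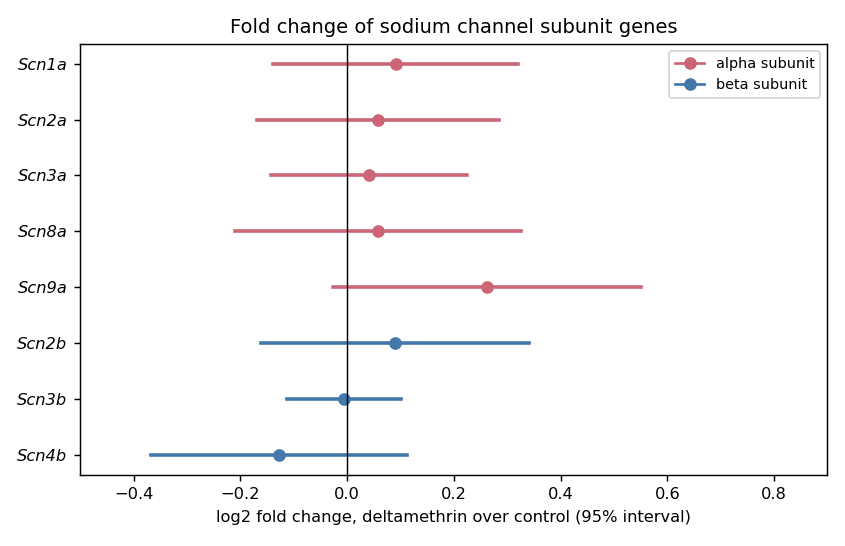
Log2 fold change, deltamethrin over control, of the alpha (red) and beta (blue) subunit genes, with estimates as points and 95% intervals from edgeR as lines. Every interval includes 0, from the narrow one of Scn3b (-0.11 to 0.10) to the wide one of Scn9a (-0.03 to 0.55).

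The composition of the alpha subunit pool was then compared, as the share of each gene in the summed counts of the 5 alpha genes of a library. In control, Scn2a made up 42.7 ± 2.43% (SD, n = 13), Scn8a 30.1 ± 2%, Scn1a 20.9 ± 1.70%, Scn3a 5.71 ± 0.675% and Scn9a 0.652 ± 0.163%. In deltamethrin the shares were 42.7 ± 1.84% (SD, n = 18), 29.6 ± 2.35%, 21.2 ± 1.21%, 5.70 ± 0.714% and 0.742 ± 0.131%. No mean share moved by more than 0.456 percentage points. In single libraries the share of Scn2a ranged from 39.6% to 49.2% in control and from 38.6% to 45.2% in deltamethrin. The summed level of the pool averaged 672 ± 103 CPM in control (SD, n = 13) and 703 ± 189 CPM in deltamethrin (SD, n = 18). Its range over single libraries was 496 to 867 CPM in control and 485 to 1138 CPM in deltamethrin.

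No share passed the threshold between the groups by a two-sided permutation test. The difference, deltamethrin minus control, was 0.33 percentage points for Scn1a (p = 0.535), 0.05 for Scn2a (p = 0.954), -0.009 for Scn3a (p = 0.97), -0.46 for Scn8a (p = 0.573) and 0.09 for Scn9a (p = 0.0983). After adjustment over the 5 shares the permutation p-values were 0.491 for Scn9a and 0.954 to 0.97 for the others. The share of Scn9a was between 0.320% (control replicate 1) and 0.982% (control replicate 7) in control and between 0.509% and 1.05% in deltamethrin. Its unadjusted permutation p was 0.0235 without control replicate 7 and 0.0403 without control replicate 2, but 0.217 without control replicate 1. Per kilobase of exon, Scn2a held 43.9%, Scn1a 24.7%, Scn8a 24.7%, Scn3a 5.98% and Scn9a 0.721% of the pool on average over the 31 libraries. The gap between Scn8a and Scn1a seen in raw counts was thus not seen per kilobase of annotated exon. Per kilobase of the longest coding transcript, Scn8a held 24.7% and Scn1a 23.8%.

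**Figure D3:**
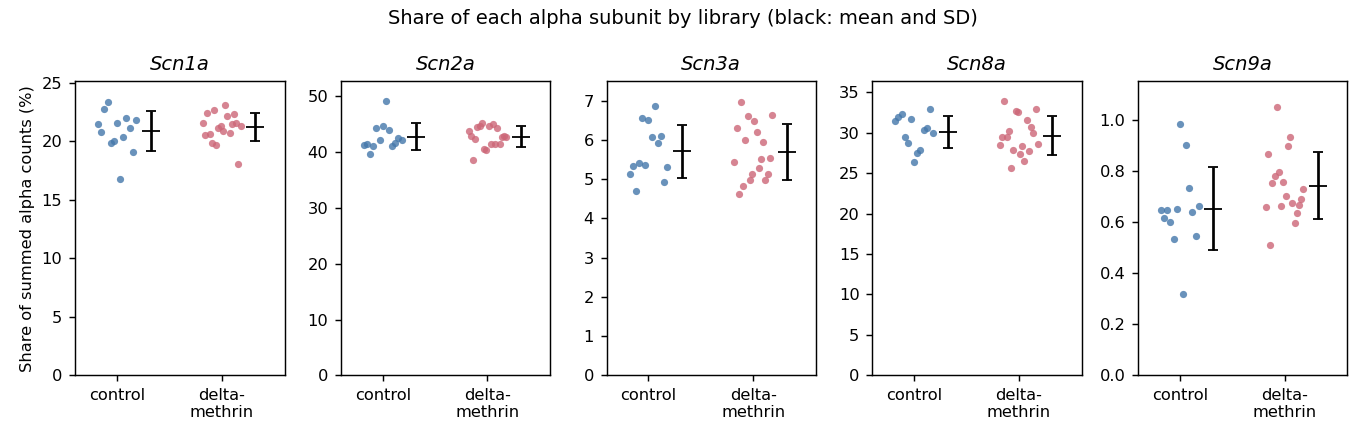
Share of each alpha subunit gene in the summed alpha counts, in percent, for every library (blue, control, n = 13; red, deltamethrin, n = 18; black, mean and SD), on axes that start at 0. Scn2a was close to 43% of the pool in both groups, and the lowest Scn9a share, 0.320%, was that of control replicate 1.

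Across the 31 libraries the alpha subunit mRNAs varied together. All 10 pairs of alpha genes correlated positively in log2 CPM, with Pearson r from 0.54 to 0.91 and a median of 0.725, and 10 of 10 had a permutation p-value under 0.05 after adjustment over the 28 pairs of subunit genes. The tightest pair was Scn1a and Scn8a (r = 0.91, rho = 0.90, both with permutation p = 1e-05, which is the smallest possible with these permutations, adjusted p = 4.67e-05 for r). Without the 2 farthest libraries its r was 0.87, and r was 0.83 within control and 0.93 within deltamethrin. Scn2a and Scn8a (r = 0.89), Scn1a and Scn2a (r = 0.89) and Scn2a and Scn3a (r = 0.88) followed. Within control alone, where n is 13, r ranged from 0.17 (Scn2a and Scn9a) to 0.84 (Scn2a and Scn3a), and 3 of 10 pairs passed after adjustment. Scn8a and Scn9a no longer passed without the 2 farthest libraries (r = 0.37, adjusted permutation p = 0.078). A share of all genes tested had an r of at least that size with the second gene named in the pair. This share ran from 0.312% (Scn2a and Scn3a) to 19.7% (Scn8a and Scn9a).

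Pairs that held a beta gene were described in the same way, and their difference from the alpha pairs was not tested. The 15 pairs of an alpha with a beta gene had r from -0.14 to 0.61 with a median of 0.26, and 4 of 15 passed after adjustment. The highest was Scn3a with Scn3b (r = 0.61, permutation p = 0.00034, rho = 0.66, permutation p = 0.00014, adjusted p = 0.000952 for r, 0.55 without the 2 farthest libraries). Rank correlations with Scn2b were larger than r, with rho = 0.72 against r = 0.455 for Scn8a and rho = 0.60 against r = 0.35 for Scn1a. Among the beta genes, the neighbours Scn2b and Scn4b had r = 0.53 (permutation p = 0.00177, rho = 0.40, permutation p = 0.0274, adjusted p = 0.00413 for r), which was 0.42 without the 2 farthest libraries. Deltamethrin replicates 1 and 2 had the highest 2 values of Scn1a, Scn2a, Scn3a and Scn8a, whereas the highest 4 libraries for Scn2b and for Scn4b were split evenly between the groups.

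The subunit levels also varied with a measure of gene length. A long-gene score was formed for each library as the mean log2 CPM of 1454 protein-coding genes with at least 10 kb of exon minus that of 2024 genes with at most 2 kb, leaving out the 8 subunit genes, and it was chosen after seeing the data. It correlated with Scn8a (r = 0.93, rho = 0.90), Scn2a (r = 0.92, rho = 0.90) and Scn1a (r = 0.92, rho = 0.92), each with a permutation p of 1e-05 for both measures and an adjusted p of 8.14e-05 for r over 57 relations. Without the 2 farthest libraries r was 0.888, 0.887 and 0.875 for the same genes. Scn3a had r = 0.77 (permutation p = 1e-05, rho = 0.68, permutation p = 7e-05), which was 0.66 without the 2 farthest libraries, and Scn9a had r = 0.65 (permutation p = 8e-05, rho = 0.71, permutation p = 2e-05), which was 0.54. For Scn8a, 1.84% of all genes tested had an r of at least that size, and for Scn9a 29.5% did.

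The beta genes have shorter mRNAs, and whether their relation with this score differed from that of the alpha genes was not tested. Pearson r was 0.52 for Scn2b (permutation p = 0.00256, rho = 0.69, permutation p = 4e-05, 0.56 without the 2 farthest libraries), 0.51 for Scn3b (permutation p = 0.00302, rho = 0.46, permutation p = 0.00975, 0.43 without them, where it no longer passed after adjustment) and 0.32 for Scn4b (permutation p = 0.0849, rho = 0.25, permutation p = 0.185, 0.29 without them). An r of at least that size was common, in 43.8% of all genes tested for Scn2b, 44.8% for Scn3b and 66.9% for Scn4b. Among the controls r was 0.58 for Scn2b, 0.50 for Scn3b and 0.635 for Scn4b. The alpha genes there had 0.80 (Scn1a), 0.78 (Scn2a), 0.50 (Scn3a), 0.90 (Scn8a) and 0.25 (Scn9a), and Scn1a, Scn2a and Scn8a passed after adjustment. Among the deltamethrin libraries r was 0.66 for Scn2b, 0.57 for Scn3b and 0.24 for Scn4b. The alpha genes had 0.80 (Scn9a) to 0.98 (Scn2a) in those libraries. The score itself averaged 2.47 ± 0.23 over the 13 controls (SD) against 2.62 ± 0.37 over the 18 deltamethrin libraries (SD), with a two-sided permutation p of 0.212 (adjusted 0.654 over 7 library measures).

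With this score as a covariate, a fit also chosen after seeing the data, the estimates of 4 alpha genes changed sign. The log2 fold change became -0.15 ± 0.05 (SE) for Scn8a (unadjusted p = 0.00358), -0.11 ± 0.05 for Scn2a (unadjusted p = 0.0375), -0.08 ± 0.05 for Scn1a (unadjusted p = 0.11) and -0.06 ± 0.06 for Scn3a (unadjusted p = 0.295), each with an adjusted p of 1 by edgeR, in a range of 0.797 to 1 over the 8 alternatives with all libraries. Thus 2 of the 8 subunit genes had an unadjusted p-value under 0.05 in that fit, where 3.68% of all genes tested did. Scn9a, the remaining alpha gene, kept its sign, with 0.12 ± 0.11 (SE, unadjusted p = 0.301) in place of 0.26.

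The share of mitochondrial rRNA also moved with several subunits. Scn2b was lower in libraries where that share was higher (r = -0.83, rho = -0.85, each permutation p = 1e-05, adjusted p = 8.14e-05 for r, -0.78 without the 2 farthest libraries). Among the controls r was -0.92 and among the deltamethrin libraries -0.77. Scn8a (r = -0.73, permutation p = 1e-05, rho = -0.75, permutation p = 2e-05) and Scn1a (r = -0.64, permutation p = 0.00011, rho = -0.68, permutation p = 5e-05) did likewise, with -0.82 and -0.77 without the 2 farthest libraries. Among the deltamethrin libraries r was -0.93 for Scn8a and -0.83 for Scn1a. Neither passed among the controls, with -0.52 for Scn8a (adjusted permutation p = 0.258) and -0.42 for Scn1a (adjusted permutation p = 0.379). In either direction, 8.45% of all genes tested had an r of at least the size of that for Scn2b and 30.1% for Scn1a. With the mitochondrial rRNA share as a covariate, the log2 fold change of Scn8a was -0.03. The log2 share averaged -2.795 ± 0.677 over the 13 controls (SD) against -2.88 ± 0.51 over the 18 deltamethrin libraries (SD, permutation p = 0.698, adjusted 0.814 over the 7 measures).

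The subunit levels were also set against markers of brain regions and neuron classes, and differences between subunits in these relations were not tested. Scn4b followed the mean of 9 striatal markers, among them Drd1, Drd2, Adora2a and Ppp1r1b, with r = 0.65 (permutation p = 0.00014, adjusted p = 0.000725, rho = 0.68, permutation p = 8e-05), 0.61 without the 2 farthest libraries. Among the controls r was 0.54 and among the deltamethrin libraries 0.75, while Scn3b had 0.65 among the controls and 0.001 among the deltamethrin libraries. Only 0.307% of all genes tested had an r of that size with the striatal mean. All 9 markers were detected in every library, with a summed level of 715 to 1322 CPM in control and 563 to 1361 CPM in deltamethrin. In deltamethrin 9 of 9 had estimates below 0, with 0 at an unadjusted p-value under 0.05 by edgeR. Over all 19529 genes tested, 9665 were below 0 and 4.37% were under 0.05. The striatal mean was 6.22 ± 0.33 log2 CPM in control and 6.085 ± 0.311 log2 CPM in deltamethrin (permutation p = 0.245, adjusted 0.654), and its part in the lower estimate for Scn4b was not tested.

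Scn2b followed the mean of 7 interneuron markers (Gad1, Gad2, Slc32a1, Pvalb, Sst, Vip and Lhx6), with r = 0.77 (permutation p = 1e-05, adjusted p = 8.14e-05, rho = 0.67, permutation p = 0.00012), and 0.67 without the 2 farthest libraries. Scn4b had r = 0.45 with the same mean (permutation p = 0.0106, adjusted p = 0.0356, rho = 0.40, permutation p = 0.0269), which was 0.38 without the 2 farthest libraries and no longer passed. An r of at least that size was found in 1.61% of all genes tested for Scn2b and 39.1% for Scn4b. Scn2b also followed the mean of 7 markers of cortical glutamatergic neurons (r = 0.58, permutation p = 0.00103, rho = 0.38, permutation p = 0.0352), but that relation was 0.42 without the 2 farthest libraries and no longer passed after adjustment. All of these markers were detected in every library. Of the 7 interneuron markers, 3 had estimates above 0 in deltamethrin and 4 below. By edgeR 1 of 7 had an unadjusted p-value under 0.05 between the groups, where 4.37% of all genes tested did. Summed levels were 545.3 to 714 CPM in control and 559.9 to 822 CPM in deltamethrin for the interneuron list, and 1676 to 3970 CPM and 2229 to 4070 CPM for the cortical list. Scn1a, the subunit tied to inhibitory interneurons, had r = 0.25 with the interneuron mean (permutation p = 0.181, rho = 0.26, permutation p = 0.158), 0.32 without the 2 farthest libraries. At least that size was reached by 67.5% of all genes tested. With the mean of 8 cerebellar markers, Scn2b had r = 0.41 (permutation p = 0.0374, adjusted p = 0.0968, rho = 0.68, permutation p = 7e-05), 0.58 without the 2 farthest libraries. For Scn1a r was 0.39 (adjusted permutation p = 0.0837, rho = 0.53, permutation p = 0.00224) and for Scn8a 0.31 (adjusted permutation p = 0.188, rho = 0.46, permutation p = 0.0107). Over all 31 libraries none of these r passed after adjustment.

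The number in the sample title, the one other label that orders the libraries, was also examined after seeing the data. Scn3a (r = -0.47, permutation p = 0.00811, rho = -0.47, permutation p = 0.00851) and Scn2a (r = -0.43, permutation p = 0.0149, rho = -0.37, permutation p = 0.0384) were higher at low numbers, and both r weakened to -0.39 and -0.33 without the 2 farthest libraries, where neither passed after adjustment. The labels do not say what this number stands for. In all, 19 of 57 relations with library measures and 16 of 28 pairs passed after adjustment. Many were common among genes, by the share of all genes tested with an r at least as large in size. That share ran from 0.307% (Scn4b and the striatal mean) to 52.3% (Scn4b and the mitochondrial rRNA share) over those relations. Over those pairs, taken with the second gene named, it ran from 0.312% (Scn2a and Scn3a) to 46.8% (Scn8a and Scn2b).

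**Figure D4:**
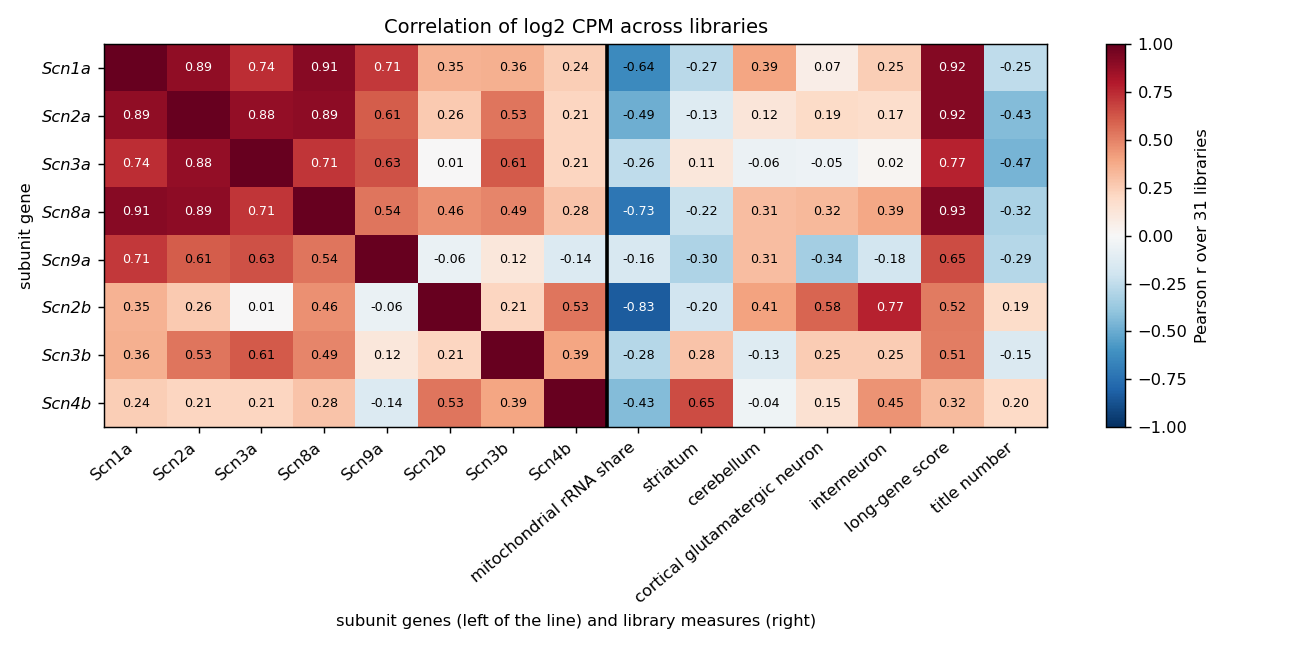
Pearson r of log2 CPM over the 31 libraries between the 8 subunit genes (left of the line) and with 7 library measures (right of it), from blue (-1) to red (1). The alpha genes form a block with r of 0.54 to 0.91 and share high values for the long-gene score, Scn4b has 0.65 with the striatal markers, and Scn2b has -0.83 with the mitochondrial rRNA share and 0.77 with the interneuron markers.

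**Figure D5:**
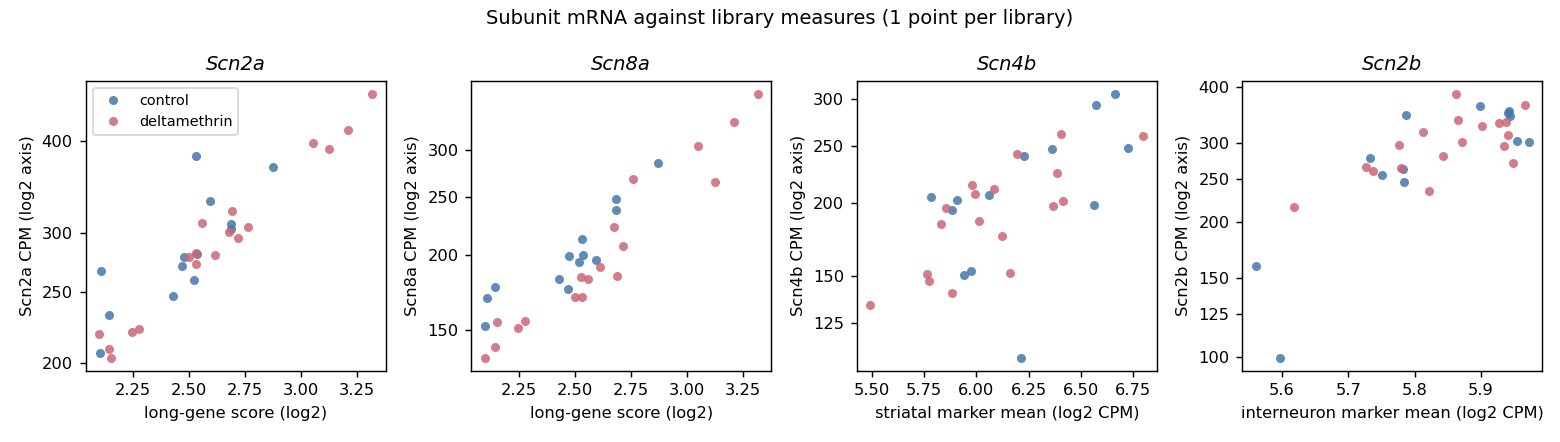
CPM (log axis) of Scn2a and Scn8a against the long-gene score, of Scn4b against the striatal marker mean and of Scn2b against the interneuron marker mean, with 1 point per library (blue, control; red, deltamethrin). The groups overlap along each horizontal axis, and the lowest Scn2b and Scn4b points are control replicate 2.

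The genes whose pattern was most like each subunit were found by Pearson r of log2 CPM over the 31 libraries among 19528 other genes, as a description. They were Dip2b (0.98), Plxna4 (0.98) and D430041D05Rik (0.98) for Scn8a, Nrip1 (0.975), Gpr158 (0.97) and Adam22 (0.97) for Scn2a, and Adam23 (0.96), Pdcd6ip (0.95) and Chd6 (0.95) for Scn1a. For Scn3a they were Slc2a13 (0.94) and Ubr1 (0.93), and for Scn9a N4bp2 (0.875), Ago3 (0.87) and Mtmr10 (0.85). Scn4b was most like Rasd2 (0.93), Pde1b (0.845) and Drd2 (0.84), Scn2b most like Tmem127 (0.98), Fam168b (0.97) and Cplx2 (0.97), and Scn3b most like Lmo7 (0.78), St6galnac5 (0.77) and Plppr4 (0.76). Another subunit gene was nearest in order at place 55 (Scn8a, from Scn1a) and place 59 (Scn2a, from Scn3a).

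Scn7a, an atypical relative of the alpha genes, and Nalcn, the sodium leak channel, also passed the count filter. The log2 fold change was 0.075 ± 0.144 for Scn7a (SE, adjusted p = 0.911 by edgeR) and -0.004 ± 0.088 for Nalcn (SE, adjusted p = 0.993 by edgeR). Neither passed the threshold. Scn4a, the skeletal muscle channel, had 0 to 3 counts per library, and Scn10a and Scn11a, channels of sensory neurons, had 2 to 16 and 0 to 14.

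Partners of the channel were counted in the same way. Of 14 genes for fibroblast growth factor homologous factors, ankyrins, spectrin, adhesion molecules, the ubiquitin ligase Nedd4l and calmodulins, 12 had estimates above 0 and 2 below, with a median log2 fold change of 0.09, where 50.5% of all genes tested were above 0. Of these, 1 of 14 had an unadjusted p-value under 0.05, against 4.37% of all genes tested. It was Fgf11, an intracellular protein that binds the channel's tail, with 14.3 ± 2.33 CPM over the controls (SD, n = 13), 16.3 ± 2.81 CPM over the deltamethrin libraries (SD, n = 18) and a log2 fold change of 0.185 ± 0.086 (SE, unadjusted p = 0.0373, adjusted p = 0.813 by edgeR). Among 8 regulators of sodium channel transcription and splicing (Rest, Rbfox1, Rbfox2, Rbfox3, Srrm4, Nova1, Nova2 and Celf4), 7 had estimates above 0 and 1 below, and 0 were under 0.05 before adjustment. Rest, the repressor that silences neuronal genes such as Scn2a outside the nervous system, averaged 5.69 ± 0.964 CPM over the controls against 6.49 ± 1.58 CPM over the deltamethrin libraries, with a log2 difference of 0.18 ± 0.11 (SE, adjusted p = 0.813 by edgeR).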

How the data were processed

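Total RNA of 31 mouse brain samples was sequenced by the authors, and the samples were grouped by their agent label into control (13) and deltamethrin (18). The authors deposited 1 table of raw, unnormalized counts with genes named by Ensembl ID. MultiQC, Trimmomatic, HISAT2, SAMtools and the build GRCm38 are named in the submitters' processing notes, while the counting tool, the annotation and the use of strand are not given in the sources used here. Columns were assigned through the sample titles, and 1 further column, a row total, was not used. Gene IDs were matched to GENCODE M21 on GRCm38, where 48435 of 48795 were found, for coordinates and exon lengths.

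Genes were kept by filterByExpr (minimum count 10, minimum total 15) in edgeR 4.0.16 (R 4.3.3), which left 19529. Groups were compared with TMM factors and the quasi-likelihood F-test (robust), without covariates, with Benjamini-Hochberg adjustment over all genes tested. SE was derived from the estimate and its F statistic, and 95% intervals use it with the moderated degrees of freedom. Log2 CPM has a prior count of 2. Shares, library measures and correlations were tested by two-sided permutation with 100000 resamples, for which 1e-05 is the smallest p-value, and adjusted within their family. Alternatives were RLE factors, no factors, no count filter, totals without mitochondrial rRNA, its share as a covariate, DESeq2 1.42.0, limma voom 3.58.1, other share definitions and leaving out each library. The scripts were tested on simulated data.

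The subunit genes and gene lists were chosen with earlier results of these data known. Named genes were all 8 subunit genes, Rest, up to 3 genes of each further list with an unadjusted p-value under 0.05, and the 3 genes most correlated with each subunit gene. The antisense gene Gm13629, Scn4a, Scn7a, Scn10a, Scn11a and Nalcn were named after their values were seen. Some items that this rule names are not reported here.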

Additional observations from a re-analysis of the deposited data

How the results depend on the processing

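Under the 8 alternatives and in the 31 fits that each left out 1 library, 0 subunit genes and 0 of all genes passed the adjusted threshold. The estimate changed sign for Scn8a with the mitochondrial rRNA share as a covariate (-0.032), for Scn3b with no scaling factors (0.043) and no count filter (0.002), and with the long-gene score as a covariate, added after seeing the data, for Scn1a (-0.082), Scn2a (-0.106), Scn3a (-0.064) and Scn8a (-0.152). Subunit genes with an unadjusted p-value under 0.05 numbered 1 with no scaling factors, 1 with no count filter and 2 with the long-gene score. All genes at that threshold numbered 853, against 1948 with no count filter and 1796 with the mitochondrial covariate. The difference in the Scn2a share was -0.018 per kilobase, -0.010 with the other alpha genes added and -0.009 per kilobase of the longest transcript. Relations with library measures past the threshold numbered 36 with no scaling factors and 6 within control, and pairs 25 and 4. For these the cause was not tested. Fewer samples enter within control, and more genes enter with no count filter.

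Leaving out each library in turn, the log2 fold change ran from 0.043 to 0.128 for Scn1a, 0.016 to 0.101 for Scn2a, 0.008 to 0.074 for Scn3a, -0.003 to 0.116 for Scn8a (the lowest without deltamethrin replicate 1), 0.212 to 0.344 for Scn9a, 0.012 to 0.135 for Scn2b, -0.024 to 0.016 for Scn3b and -0.189 to -0.074 for Scn4b. Subunit genes with an unadjusted p-value under 0.05 numbered 0 to 1. All genes at that threshold numbered 526 to 1389, and moved by over 1.5 times without deltamethrin replicate 3, 8, 9 or 10 or control replicate 4, 7, 10 or 11. Differences in share ran from -0.004 to 0.546 points for Scn1a, -0.217 to 0.590 for Scn2a, -0.092 to 0.088 for Scn3a, -0.764 to -0.221 for Scn8a and 0.062 to 0.117 for Scn9a. Scn9a, with 59 to 300 counts per library, had the least depth. No paired analysis was possible because replicate numbers follow accession order and pair no samples.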
